A study of Mus musculus with 3 samples.

Results

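The 10 genes described here encode elastic fibre and microfibril proteins: Eln, Fbn1, Fbln1, Fbln5, Ltbp1, Ltbp2, Ltbp4, Mfap4, Mfap5 and Lox. They are 10 of the 22954 genes measured in each of 19622 lung cells. The genes were chosen by their role in the elastic fibre and with earlier results of these data known, namely that the levels of Eln and Ltbp2 stood out in fibroblasts of the CONV library. The levels in fibroblasts are therefore a description.

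The cells came from the lungs of 3 female C57BL6/J mice labelled WT (wild type), 1 library of 1 mouse per condition, and were captured in droplets with a 3′ single-cell chemistry. All 3 mice had received 13 Gy to the bilateral thorax at 8 to 9 weeks of age, and lungs were taken 5 months later. The CONV mouse was irradiated at a conventional dose rate and the FLASH mouse at an ultra-high dose rate. The CONV AsiDNA mouse received conventional irradiation after AsiDNA, a short double-stranded DNA molecule that acts as a decoy for broken ends and perturbs DNA repair, with daily doses of 100 mg/kg over the 2 preceding days and 200 mg/kg on the irradiation day. No library of non-irradiated lung was analysed here, so no value says how a gene stood relative to unirradiated lung. With 1 mouse per condition no test between conditions was possible, condition and mouse cannot be told apart, and the intervals refer to cell sampling within a mouse. The lungs were dissociated with dispase and elastase, and the cells measured are those that this digestion released.

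Elastic fibres give the lung its recoil. Tropoelastin is secreted by fibroblasts, smooth muscle cells and other mesenchymal cells, deposited on a scaffold of fibrillin microfibrils with the help of fibulins and latent TGF-β binding proteins, and crosslinked by lysyl oxidases into a polymer that lasts for most of an animal's life. The same microfibrils hold latent TGF-β in the matrix, so this family stands at the junction between tissue mechanics and growth factor storage, and its dysregulation is a known part of lung scarring and of emphysema.

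The values deposited per gene and cell were natural logs of 1 plus a whole number, and that whole number is called the adjusted count here. The CONV, CONV AsiDNA and FLASH libraries held 6372, 6983 and 6267 cells, with a median of 3450, 3678 and 3621 adjusted counts per cell. The median mitochondrial share was 0.628%, 0.180% and 1.35%. Between 9 and 17 cell barcodes were common to any pair of libraries. Values for the 3 libraries are given in this order throughout. A level is the pooled adjusted count of a gene in the cells of a type in a library, scaled to a total of 1000000 (CPM). Cells were assigned to types by 8 markers each, none of them among the 10 genes. This gave 355 fibroblasts, 155 smooth muscle cells (SMC), 91 mesothelial cells and 1296 endothelial cells, beside 2625 epithelial and 13765 immune cells. All 8 fibroblast markers were above 0 in at least 10% of the fibroblasts of every library. The pericyte gate found 0 cells.

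The gene at the centre of the CONV pattern is Ltbp2, at chr12:84783212-84876532 on the minus strand of GRCm38. It belongs to a family of which Ltbp1, at chr17:75005568-75392512 on the plus strand, and Ltbp4, at chr7:27305136-27337692 on the minus strand, are also among the 10 genes. Ltbp3 of the same family is given with the other genes of elastic fibre biology. Ltbp1 and Ltbp4 encode proteins that bind latent TGF-β, whereas Ltbp2 encodes the family member that does not, and that is bound to microfibrils and to fibulin-5. Because the 3 genes had different patterns over libraries, the sequence upstream of each is shown, from 250 to 81 bases before the most upstream start listed by RefSeq for GRCm38.p6. RefSeq lists 2 starts for Ltbp1, 1 for Ltbp2 and 3 for Ltbp4, and the windows of the other starts were not searched. Each is written 5′ to 3′ on the strand of its gene, for Ltbp1 at chr17:75005279-75005448, for Ltbp2 at chr12:84876572-84876741 and for Ltbp4 at chr7:27337693-27337862. Capitals mark matches to the GC box letters GGGCGG on either strand.
Ltbp1: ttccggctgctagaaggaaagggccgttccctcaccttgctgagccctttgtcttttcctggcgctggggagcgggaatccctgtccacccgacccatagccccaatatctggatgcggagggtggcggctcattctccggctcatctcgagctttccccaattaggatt
Ltbp2: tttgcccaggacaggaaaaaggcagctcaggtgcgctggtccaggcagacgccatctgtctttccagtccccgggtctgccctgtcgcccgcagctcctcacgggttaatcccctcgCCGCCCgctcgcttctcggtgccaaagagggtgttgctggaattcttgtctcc
Ltbp4: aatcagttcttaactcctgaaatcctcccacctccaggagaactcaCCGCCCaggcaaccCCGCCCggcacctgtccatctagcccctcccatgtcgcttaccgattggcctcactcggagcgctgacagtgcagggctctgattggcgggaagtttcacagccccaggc
The GC box letters occurred 0 times upstream of Ltbp1, 1 time upstream of Ltbp2 and 2 times upstream of Ltbp4, and in 19.5% of 32851 such windows of the mouse genome. The letters TGANTCA of AP-1 sites (in 4.68% of windows), GGAATG of TEAD sites (9.12%), CAGACA of SMAD sites (12.6%) and TATAAA of TATA boxes (8.04%) were in none of the 3 windows on either strand. The GC content of the windows was 58.8%, 62.4% and 60.6%, against a median of 51.2%. The RefSeq table held 6 of the 10 genes, and Eln, Mfap4, Mfap5 and Lox were not among them. A match to these letters is a description and not a binding site. The windows end 81 bases before the start, so letters absent from them, TATAAA included, may lie nearer to the start, which was not searched.

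The 10 genes were found mostly in mesenchymal and endothelial cells, with Fbln5 also in alveolar type 1 (AT1) cells. Over the 13765 immune cells, 7 of the 10 genes were listed at 0 in all 3 libraries, and the other 3 were above 0 in few cells: Ltbp1 in 0, 3 and 5 cells, Ltbp2 in 0, 3 and 1, and Mfap4 in 2, 0 and 0. Eln was listed at 0 in all epithelial cells. How the values were adjusted before deposit is not known, so a value of 0 sets no limit on a level.

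Mfap4, which encodes a microfibril-associated glycoprotein that binds elastin and fibrillin, was almost wholly in fibroblasts. Fibroblasts held 97.2%, 99.1% and 99.6% of its adjusted counts in CONV, CONV AsiDNA and FLASH, although they made up 1.05%, 1.68% and 2.73% of the cells. Eln had several sources. Fibroblasts held 38.7%, 35.9% and 43.2% of its adjusted counts, and endothelial cells held 36.4%, 37.0% and 32.0%. Fbln5, which encodes the fibulin that brings tropoelastin to microfibrils, was chiefly endothelial, at 65.5%, 52.5% and 41.4% of its adjusted counts.

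**Figure D1:**
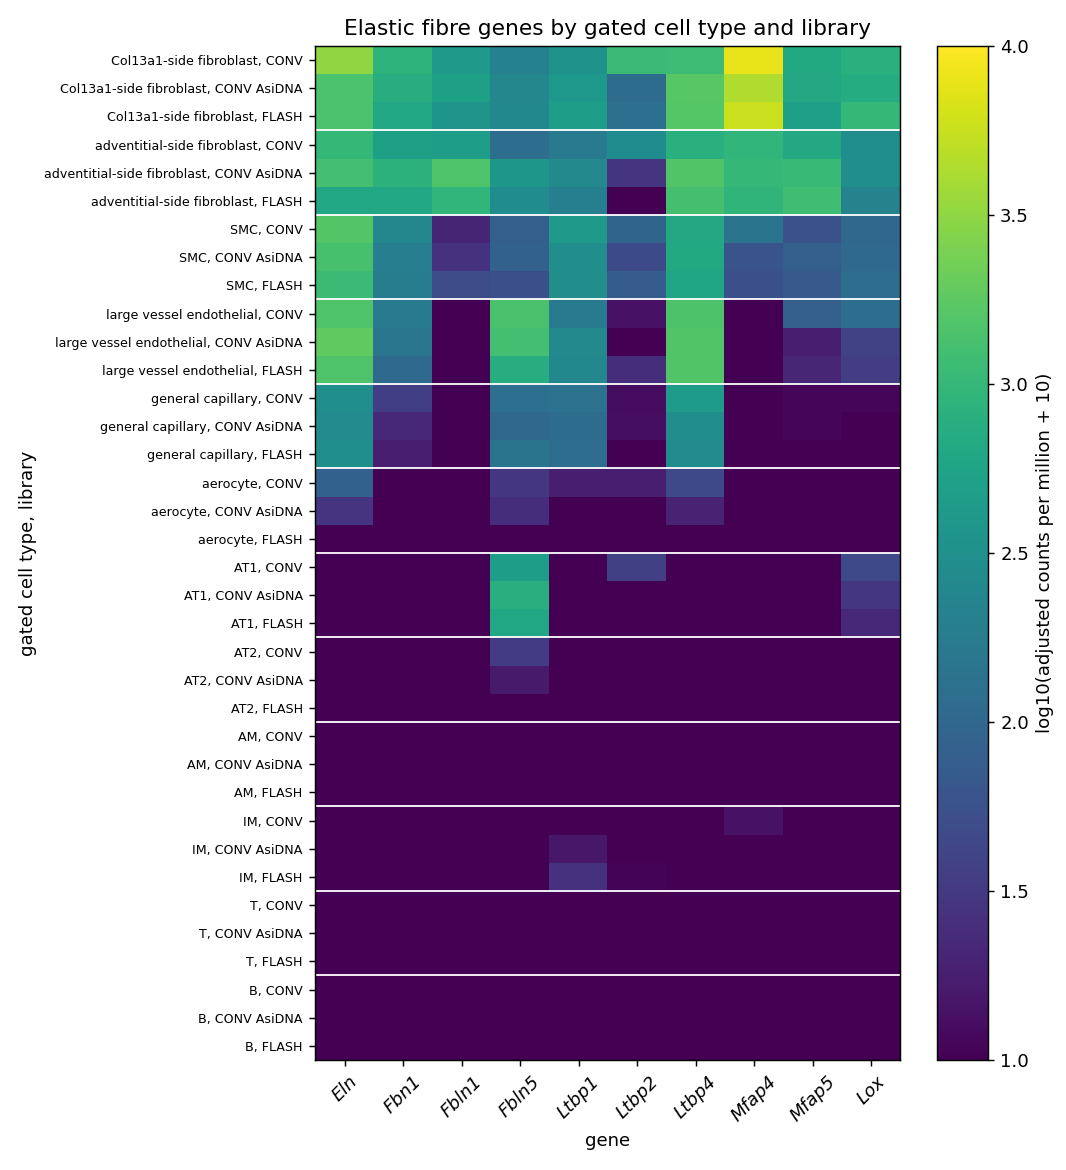
Levels of the 10 genes by gated cell type and library, coloured as log10 of the level in CPM plus 10, so that the darkest colour is a gene listed at 0. Each block of 3 rows is CONV, CONV AsiDNA and FLASH, each 1 mouse. Mfap4 and Fbln1 are highest in fibroblasts, Eln, Ltbp1 and Ltbp4 extend into SMC and endothelial cells, and Fbln5 into AT1 cells. Of the types drawn, which leave out mesothelial cells, Ltbp2 is brightest in the fibroblasts of CONV.

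In fibroblasts, Ltbp2 was at a level of 746 CPM in CONV, against 76.4 in CONV AsiDNA and 92.8 in FLASH. It was above 0 in 40 of 67 CONV fibroblasts (59.7%, Clopper-Pearson 95% interval 47.0% to 71.5%), against 21 of 117 of CONV AsiDNA (17.9%, 11.5% to 26.1%) and 23 of 171 of FLASH (13.5%, 8.72% to 19.5%). CONV stood apart from both other libraries, whose intervals overlapped each other. The log2 ratio of CONV over CONV AsiDNA was 3.13 and of CONV over FLASH 2.88, each taken on the level plus 10. The highest cell did not carry the difference, since without it in each library the levels were 680, 56.8 and 74.7.

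Depth did not differ much between these cells, with a median of 4313, 4149 and 4019 adjusted counts per fibroblast. After each fibroblast was thinned to 1000 adjusted counts, which left out 0 cells, Ltbp2 was above 0 in 34.3% (23.2% to 46.9%), 3.42% (0.939% to 8.52%) and 6.43% (3.25% to 11.2%) of cells. In alveolar type 2 (AT2) cells, an epithelial type not expected to express it, Ltbp2 was listed at 0 in each of 289, 326 and 379 cells, at a median depth of 4838, 4831 and 4798. Over all epithelial cells it was above 0 in 4 of 775, 8 of 968 and 0 of 882 cells, which were AT1, club and ciliated cells. Since the adjustment before deposit is not known, a listed 0 sets no limit on a level. The epithelial values are therefore no check on the fibroblast levels.

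Eln, the structural core of the fibre, at chr5:134702593-134747323 on the minus strand, was at 2252 CPM in CONV fibroblasts, 1363 in CONV AsiDNA and 1247 in FLASH. The log2 ratios of CONV were 0.72 and 0.85, below the 2-fold mark. The median fibroblast had 4, 4 and 2 adjusted counts of Eln, while the upper quartile was 13, 7 and 5.5, so that the libraries differed more in the upper part of the distribution than at its centre. The share of fibroblasts above 0 was 86.6%, 90.6% and 77.2%, which does not follow the order of the levels, and no order was read from it.

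The microfibril genes Fbn1, Mfap5 and Mfap4 in fibroblasts stayed within 2-fold between every pair of libraries. Fbn1, fibrillin-1, was at 706, 772 and 617 CPM, and Mfap5, a small glycoprotein of the same microfibrils, at 645, 764 and 621. Mfap4 was at 4922 in CONV, against 3310 in CONV AsiDNA and 4807 in FLASH, so that CONV AsiDNA was the lowest. For Mfap4 the log2 ratio of CONV over CONV AsiDNA was 0.57, and that of CONV AsiDNA over FLASH was -0.54.

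Fbln1, Fbln5, Ltbp1 and Ltbp4 were lower in CONV fibroblasts than in those of CONV AsiDNA and FLASH, by less than 2-fold. Fbln1, a fibulin of microfibrils and basement membranes, was at 425, 822 and 458 CPM, highest in CONV AsiDNA and at a log2 ratio of only -0.10 for CONV over FLASH. Fbln5 was at 162, 281 and 247, Ltbp1 at 260, 344 and 398, and Ltbp4, the member that guides fibulin-5 onto microfibrils and is needed for lung elastogenesis, at 976, 1592 and 1530. These last 3 genes were lowest in CONV, with log2 ratios between -0.76 and -0.39, although Ltbp1 was at 0.03 against CONV AsiDNA once cells were thinned to 1000. Lox, the crosslinking enzyme, was at 577, 583 and 832, highest in FLASH.

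Over all fibroblasts, 1 of the 10 genes, Ltbp2, was at least 2-fold higher in CONV than in CONV AsiDNA and 0 were as much lower. Of the 7536 genes compared, 5.48% were that much higher and 4.95% lower. Against FLASH the count was again 1 higher and 0 lower, where 6.67% and 5.16% of all genes were. Since Ltbp2 was among the genes that prompted the list, nothing is read from these counts. Between CONV AsiDNA and FLASH, 0 of the 10 genes were past 2-fold, against 3.25% of all genes higher and 2.15% lower. The median log2 ratio of the 10 genes was -0.18, -0.04 and 0.09 in the 3 pairs, beside medians of 0.01, -0.01 and -0.00 over all genes.

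Fibroblasts of the lung comprise an alveolar kind, marked by Col13a1, and an adventitial kind around vessels and airways, marked by genes such as Pi16 and Dpt. A split by such markers gave 39, 79 and 136 cells on the Col13a1 side in CONV, CONV AsiDNA and FLASH, and 28, 38 and 34 on the adventitial side, with 1 FLASH cell left unsplit. The Col13a1 side was thus 58.2% (45.5% to 70.2%), 67.5% (58.2% to 75.9%) and 79.5% (72.7% to 85.3%) of fibroblasts. It was the smaller share in CONV and the larger in FLASH, so levels are also given within each side.

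On the Col13a1 side the CONV pattern was larger. Eln was at 3196 CPM in CONV, against 1418 in CONV AsiDNA and 1411 in FLASH. The median cell had 11, 4 and 3 adjusted counts, with ranges of 0 to 48, 0 to 51 and 0 to 74 that overlapped fully. The log2 ratios of CONV were 1.17 against both other libraries.

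Ltbp2 on the Col13a1 side was at 1097, 104 and 116 CPM. It was above 0 in 30 of 39 cells of CONV (76.9%, 60.7% to 88.9%), against 19 of 79 of CONV AsiDNA (24.1%, 15.1% to 35%) and 23 of 136 of FLASH (16.9%, 11% to 24.3%). The interval of CONV lay above those of both other libraries, again a description of a gene that prompted the list. The log2 ratios were 3.28 and 3.13.

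The other genes of the Col13a1 side stayed within 2-fold between libraries. Mfap4 was at 7903, 4418 and 5787 CPM and Fbn1 at 861, 736 and 618, both highest in CONV. Ltbp4 was at 1121, 1632 and 1594, lowest in CONV as over all fibroblasts. Lox was at 784, 715 and 989. In all, 2 of the 10 genes, Eln and Ltbp2, were at least 2-fold higher in CONV than in each other library, where 6.89% (against CONV AsiDNA) and 5.7% (against FLASH) of 6315 genes were. In these comparisons 0 were as much lower, where 9.39% and 9.63% of genes were, and CONV AsiDNA over FLASH gave 0 higher and 0 lower, where 2.8% and 3.47% were. As Eln and Ltbp2 prompted the list, these counts too are given without a reading.

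**Figure D2:**
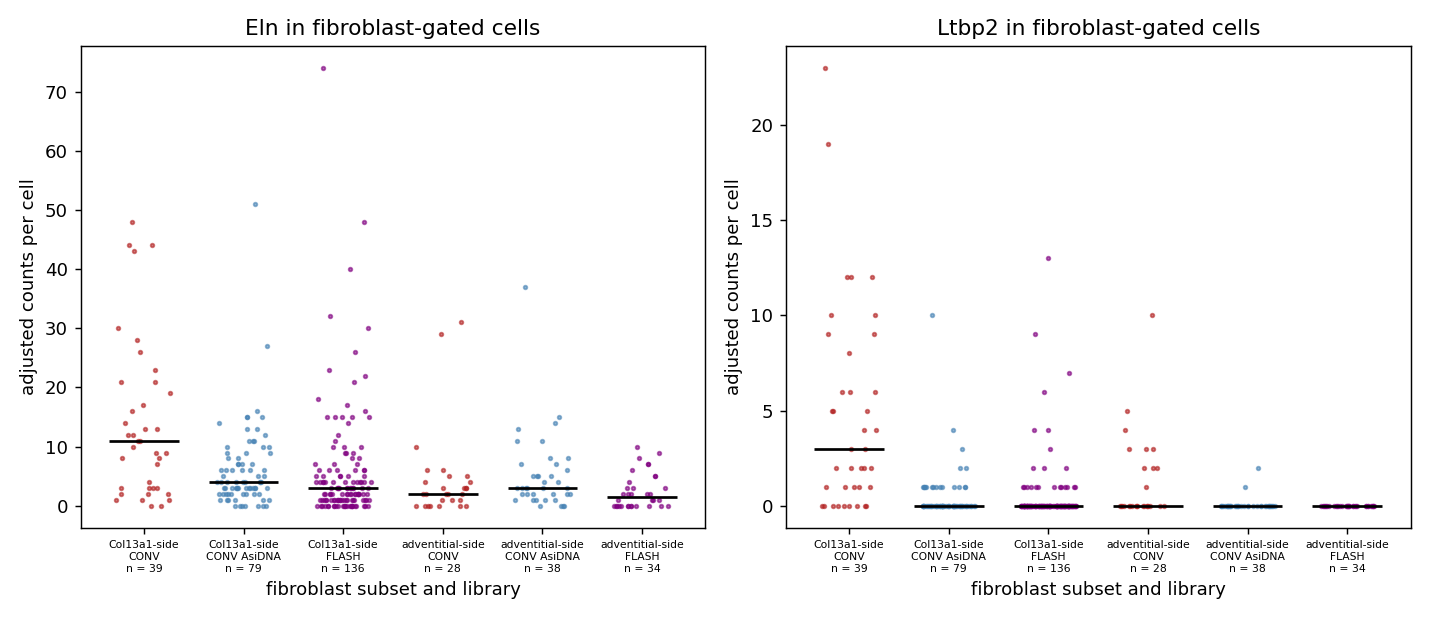
Adjusted counts per cell of Eln (left) and Ltbp2 (right) in fibroblasts of the Col13a1 side and the adventitial side, by library. Each point is 1 cell, black lines are medians, and each library is 1 mouse. On the Col13a1 side the median Eln value is 11 in CONV against 4 and 3, and Ltbp2 is above 0 in 30 of 39 CONV cells.

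The adventitial side differed from this. Eln was at 987 CPM in CONV, against 1246 in CONV AsiDNA and 607 in FLASH, so that CONV AsiDNA was highest, and the median cell had 2, 3 and 1.5 adjusted counts. Ltbp2 was at 276 in CONV, above 0 in 10 of 28 cells, and at 18.7 in CONV AsiDNA, above 0 in 2 of 38 cells. It was listed at 0 in all 34 cells of FLASH. Ltbp2 was thus higher in CONV on both sides, whereas Eln was higher in CONV than in CONV AsiDNA only on the Col13a1 side, a difference between the sides that was not tested.

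Fbln1 and Fbln5 were past 2-fold lower in CONV than in CONV AsiDNA on the adventitial side. Fbln1 was at 466 CPM in CONV, against 1495 in CONV AsiDNA and 924 in FLASH, and was above 0 in 17 of 28, 37 of 38 and 30 of 34 cells. Fbln5 was at 111, 374 and 274, above 0 in 8 of 28, 24 of 38 and 14 of 34 cells. The log2 ratios of CONV over CONV AsiDNA were -1.66 for Fbln1 and -1.67 for Fbln5, and over FLASH -0.97 and -1.24. Other fibulins, named after their values were seen, were mixed on this side. Efemp1, also a fibulin, was lowest in CONV, at 371, 698 and 708 CPM, within 2-fold. Fbln2 ran the other way, at 474, 274 and 79.4 CPM, and Efemp2 (fibulin-4) was at 182, 162 and 173. The makeup of this side also moved with CONV: its own 7 adventitial markers, all above 0 in every library, summed to 3688, 7605 and 7901 CPM, and the 8 mesothelial markers to 474, 12.5 and 28.9, with 7, 1 and 1 of them above 0. The part of these markers in the adventitial-side values was not tested.

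Mfap5 at 640, 1034 and 1184 and Ltbp4 at 782, 1507 and 1293 CPM were also lowest in CONV on the adventitial side, within 2-fold. For Fbn1, at 498, 847 and 621, and Lox, at 300.1, 305 and 209, 1 CONV cell gave 36.5% and 50.0% of the CONV adjusted counts, and without the highest cell CONV was at 336 and 160. Against CONV AsiDNA, 1 gene was at least 2-fold higher in CONV and 2 were lower, where 7.7% and 9.84% of 3506 genes were. Against FLASH, 1 was higher and 1 lower, where 9.47% and 8.1% were. The gene counted as higher is Ltbp2, listed at 0 in FLASH, which had enough counts on this side only through CONV (35, 3 and 0 adjusted counts). CONV AsiDNA against FLASH gave 2 higher and 0 lower, where 8.21% and 3.59% of genes were. Of these 2, Eln had a log2 ratio of 1.03, and the other was Ltbp2 with those 3 adjusted counts, too few to be read as a difference. For Eln, 1 cell gave 18.5% of the CONV AsiDNA adjusted counts. Without the highest cell in each library Eln was at 1042 in CONV AsiDNA and 552 in FLASH, within 2-fold.

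**Figure D3:**
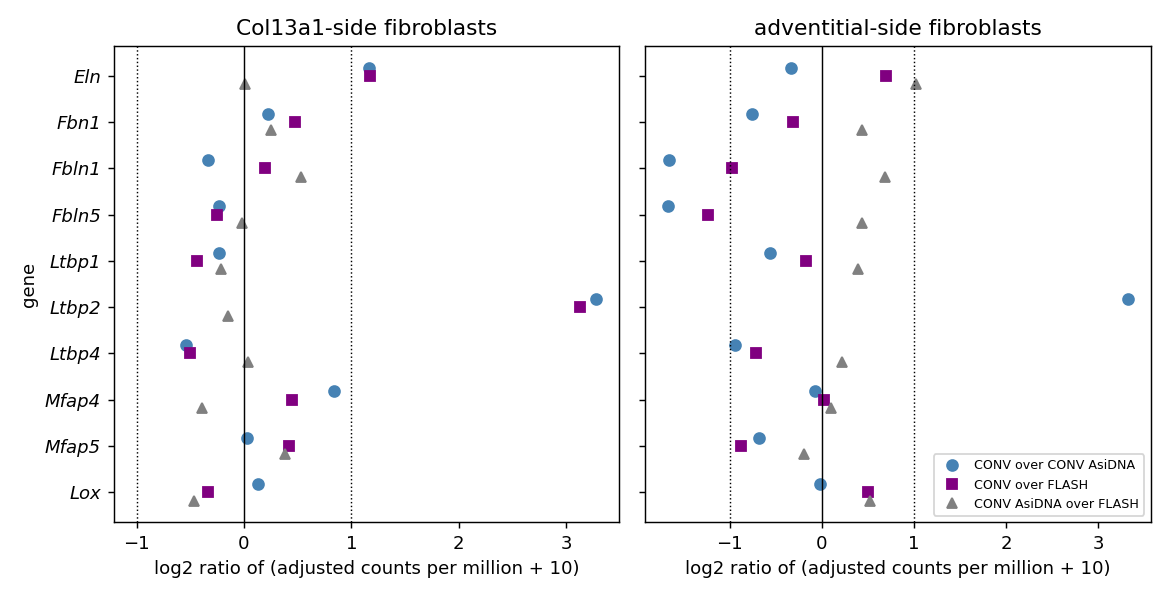
Log2 ratios of the level in CPM plus 10 for the 10 genes between each pair of libraries, in fibroblasts of the Col13a1 side (left) and the adventitial side (right). Dotted lines mark 2-fold, and no point is drawn where a library was listed at 0. Eln is past 2-fold for CONV on the left only, Fbln1 and Fbln5 lie past 2-fold lower for CONV over CONV AsiDNA on the right only, and Ltbp2 lies near or above 3 in the comparisons of CONV that are drawn.

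With the Col13a1 side and the adventitial side given equal weight in every library, Eln was at 2092, 1332 and 1009 CPM and Ltbp2 at 687, 61.3 and 58.0. CONV was thus the highest for both genes, as without this weighting, while CONV AsiDNA and FLASH changed places for Ltbp2.

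Other mesenchymal markers also moved with CONV, and their part in these values was not tested. In fibroblasts, the 6 markers of alveolar duct myofibroblasts summed to 1894 CPM in CONV, against 860 in CONV AsiDNA and 745 in FLASH. The adventitial side was at 3696, 1819 and 3135, and the Col13a1 side at 548, 404 and 157, with 3, 4 and 5 of the 6 above 0. Over all fibroblasts the members of the list differed. Enpp2 was at 1362, 174 and 197 in cells with Ltbp2 above 0 and at 165, 163 and 232 in the others. Hhip was at 722, 380 and 269.8 and at 888, 444 and 362. Aspn was at 193, 217 and 41.5 and at 78.4, 227 and 146, lower in CONV than in CONV AsiDNA in both. The 8 mesothelial markers summed to 361, 107 and 203, with 8, 4 and 2 of the 8 above 0. The 8 SMC markers ran the other way, at 392, 697 and 1347. On the Col13a1 side, where Eln differed, the mesothelial markers summed to 277, 151 and 246, with 3, 4 and 2 of the 8 above 0, and the SMC markers to 171, 816 and 1441. Wt1 was at 0 there in CONV, while on the adventitial side of CONV Upk1b was the only mesothelial marker at 0. The SMC markers of the adventitial side summed to 687, 448 and 989.

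Cells with Ltbp2 had the higher Eln level in every library. This split uses a gene that prompted the list and is a description. On the Col13a1 side of CONV, the 30 cells with Ltbp2 above 0 had an Eln level of 3799 CPM and the 9 cells without it 1107. In CONV AsiDNA the 19 cells with Ltbp2 had 2466 and the 60 without it 1073, and in FLASH the 23 with it had 3238 and the 113 without it 1031.

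Among Col13a1-side cells without Ltbp2, of which CONV had 9, the Eln level thus lay between 1031 and 1107 in all 3 libraries. The median such cell had 2, 3 and 2 adjusted counts of Eln and the highest 13, 15 and 74. The levels without the highest cell were not computed for this group, so the closeness of the 3 levels is not read as a result. Over all fibroblasts without Ltbp2 the Eln level was at 723, 1100.2 and 930, lowest in CONV, and over those with Ltbp2 at 3220, 2516 and 3238. On the Col13a1 side the median depth was alike in cells with and without Ltbp2, at 4386 and 4179 in CONV, 4279 and 4138 in CONV AsiDNA, and 4083 and 4020 in FLASH.

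Some other genes were also higher in Ltbp2-bearing cells of the Col13a1 side. Fbn1 was at 995 against 395 CPM in CONV, likewise 1149 against 600 in CONV AsiDNA, and 778 against 584 in FLASH. Hhip, a marker of alveolar duct myofibroblasts that encodes a hedgehog-binding protein, was at 471 against 237, 347 against 178 and 269.8 against 41 on that side. The 6 markers of that list summed to 638 against 237, 694 against 308 and 529 against 79.8 on the same side. In CONV this sum came from Hhip, Aspn and Enpp2 only, since Fgf18, Lgr6 and P2ry14 were listed at 0 there with and without Ltbp2. Over all fibroblasts the list summed to 2338 against 1193, 770.0 against 881 and 529 against 779, so that it was higher in the cells with Ltbp2 in CONV and lower in the other libraries. Within it Hhip was lower in the cells with Ltbp2, at 722 against 888, 380 against 444 and 269.8 against 362, while Enpp2 in CONV was at 1362 against 165. On the Col13a1 side Mfap4 did not follow in the same way, since it was higher in Ltbp2-bearing cells of CONV (8745 against 4981) and lower in those of CONV AsiDNA (3962 against 4568) and FLASH (4130 against 6131). Fbln1 (387 against 422), Fbln5 (190 against 237) and Mfap5 (608 against 791) were lower in such cells of CONV and higher in those of the other libraries. Ltbp1, Ltbp4 and Lox were higher in such cells of every library.

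**Figure D4:**
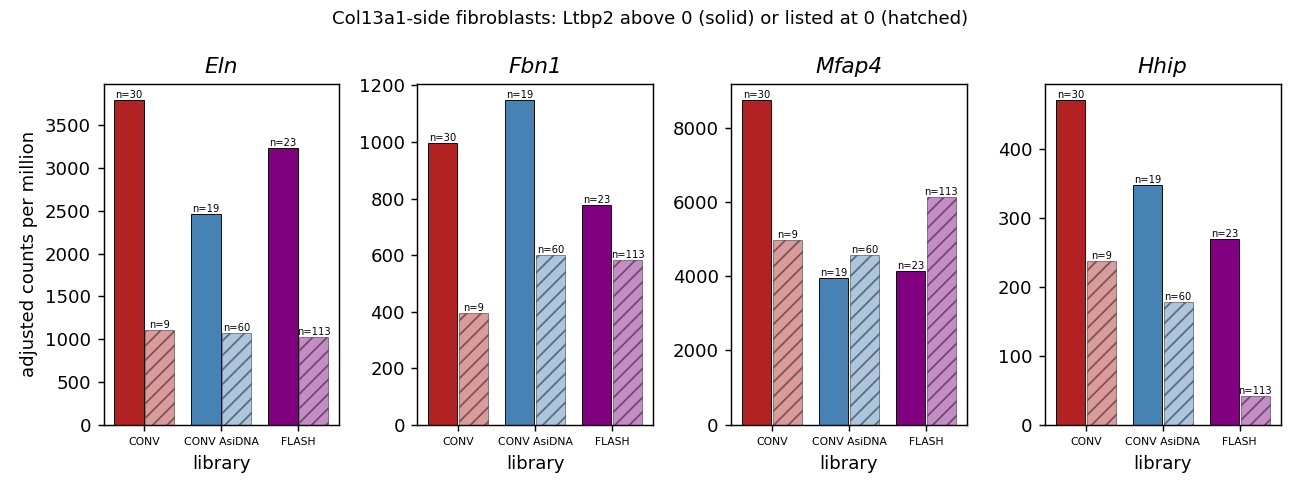
Levels of Eln, Fbn1, Mfap4 and Hhip in CPM in Col13a1-side fibroblasts with Ltbp2 above 0 (solid bars) and with Ltbp2 listed at 0 (hatched bars), by library. Each bar pools the cells counted above it, from 1 mouse, and has no error bar. Eln, Fbn1 and Hhip are higher in the cells with Ltbp2 in every library, while Eln in cells without Ltbp2 is between 1031 and 1107. The cells without Ltbp2 number only 9 in CONV, and in FLASH the highest of them has 74 adjusted counts of Eln.

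SMC lay down the elastic layers of vessels and airways. Their Eln level was at 1585, 1316 and 1110 CPM in CONV, CONV AsiDNA and FLASH, Ltbp1 at 395, 296 and 298, and Ltbp4 at 641, 650 and 574. Ltbp2 was at 82.1 (8 of 49 cells), 37.5 (8 of 60) and 64.9 (3 of 46), and CONV did not stand apart. Of the 9 genes with enough counts, 1 was at least 2-fold higher in CONV than in CONV AsiDNA, where 7.69% of 4642 genes were, and 1 than in FLASH, where 10.7% were. None was as much lower, beside 5.86% and 5.32% of all genes. The higher gene was Mfap4, at 133, 50.0 and 43.3, in 12, 9 and 5 cells. In these SMC the 8 SMC markers summed to 46040, 63048 and 65875 CPM, lowest in CONV. The 8 pericyte markers summed to 2026, 1208 and 1402, highest in CONV. The part of these markers in the SMC values was not tested.

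Mesothelial cells cover the lung surface. The CONV library held only 15 of them, below the 20 cells asked of a type, against 40 and 36, and they are described because their Ltbp2 values were seen to differ. Ltbp2 was at 1671 CPM in CONV, above 0 in 8 of 15 cells with a highest cell of 32 adjusted counts, and was listed at 0 in all 40 cells of CONV AsiDNA and all 36 of FLASH. Those 15 cells held 30.4% of the Ltbp2 of the whole CONV library.

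Lox followed, at 252 CPM in 7 of 15 mesothelial cells of CONV, against 29.5 in 4 of 40 of CONV AsiDNA, and no FLASH cell had a value above 0. Fbln5 was the reverse, at 53.1, 349 and 569.6 CPM. Eln was at 1114, 792 and 1145. In the same cells the 8 fibroblast markers summed to 17802 CPM in CONV against 8827 and 11810, and the mesothelial markers to 8330 against 12851 and 15277. The 8 SMC markers summed to 703, 35.5 and 66.7, with 4, 2 and 2 of them above 0. The part of these markers in the mesothelial values was not tested. Mfap4 was listed at 0 in all mesothelial cells of the 3 libraries, which sets no limit on its level.

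Endothelial cells made Eln, Fbln5 and Ltbp4 by vessel type. Cells of large vessels had Eln at 1483, 1829 and 1465 CPM, Fbln5 at 1379, 1243 and 727, and Ltbp4 at 1442, 1534 and 1534. General capillary cells had Eln at 303, 269.7 and 305 and Ltbp4 at 429, 286 and 274. Aerocytes, the thin capillary cells of gas exchange, had Eln at 75.6 in CONV, in 13 of 68 cells, and at 19.3 in CONV AsiDNA, all of it in 1 of 165 cells, and Eln was listed at 0 in the 179 aerocytes of FLASH.

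In large vessel cells, a pair of genes with their higher levels in fibroblasts, Mfap5 and Lox, was at its highest in CONV. Mfap5 was at 70.6 CPM in 7 of 62 cells of CONV, against 7.97 in 1 of 59 of CONV AsiDNA and 10.8 in 2 of 68 of FLASH. Lox was at 112 in 11 cells, 27.9 in 7 and 25.2 in 4. The intervals of these shares overlapped, at 9.20% to 29.5%, 4.91% to 22.9% and 1.63% to 14.4% for Lox. These were 2 of 7 genes at least 2-fold higher in CONV, where 5.84% (against CONV AsiDNA) and 6.37% (against FLASH) of 5513 genes were, and 0 were as much lower, beside 8.36% and 8.22%. Mfap5 had 17, 2 and 3 adjusted counts and Lox 27, 7 and 7, so that both reached the summed count of 20 asked of a gene only through CONV, and the count is not read as a result. The fibroblast markers summed to 20.8 CPM in the large vessel cells of CONV and were at 0 in both other libraries, and Fbln1 and Mfap4 were listed at 0 in the endothelial cells of all 3.

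In AT1 cells, the flat cells of the gas exchange surface, Fbln5 was the only 1 of the 10 genes at a substantial level. It was at 455, 774 and 614 CPM, above 0 in 49 of 103, 36 of 65 and 67 of 121 cells, and these cells held 19.5%, 19.1% and 24.8% of the Fbln5 of each library. Lox was above 0 in 10, 4 and 3 AT1 cells, and Ltbp2 in 3, 0 and 0. Eln, Fbn1, Fbln1, Ltbp1, Ltbp4, Mfap4 and Mfap5 were listed at 0 in AT1 cells of all libraries. In AT2 cells Fbln5 was above 0 in 23 of 289, 9 of 326 and 0 of 379 cells.

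Across 16 cell types in 3 libraries, giving 48 points that share mice, the gene with the pattern most like Eln was another of the 10, Ltbp4, with a Pearson correlation of 0.99 on the log2 level plus 10, followed by Mgp, Bgn, Ltbp1 and Sulf1. For Ltbp2 the closest of 12954 genes were Gas1, at 0.94, Kcne4, Timp1, Ccn5 and Lum. Among pairs of the 10 genes the correlation was lowest for Fbln1 and Fbln5, at 0.47.

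The other genes of elastic fibre biology were given by 6 lists of 49 genes, covering assembly, crosslinking, elastolysis, inhibitors of elastolysis, integrins with latent TGF-β, and the elastin receptor complex. Of the 32 with enough counts in fibroblasts, 3 were at least 2-fold higher and 0 lower in CONV than in CONV AsiDNA, and 4 higher and 1 lower than in FLASH, beside the shares of all genes given above for fibroblasts. Of the 3 genes higher than in CONV AsiDNA, Glb1 had enough counts only through CONV. It was at 30.4, 6.03 and 11.4 CPM in 9, 3 and 8 cells, and that count is not read as a result. The gene lower than in FLASH was Mmp12, a macrophage elastase, which was above 0 in 1 FLASH cell and in no other fibroblast. CONV AsiDNA over FLASH gave 2 higher and 2 lower, where 3.25% and 2.15% of all genes were. Those 2 lower genes, Mmp12 and Ctsa, had enough counts only through FLASH. In the 3 pairs the median log2 ratio of the 32 was 0.19, 0.36 and 0.14.

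A pair of these genes was past 2-fold in CONV against both other libraries, as 2.4% of all genes were. Timp1, an inhibitor of matrix metalloproteinases, was at 1219, 299 and 170 CPM, with log2 ratios of 1.99 and 2.77. The adventitial side was at 2630, 405 and 527 and the Col13a1 side at 165, 249 and 82.1, so that CONV was the highest library on the adventitial side only. Bmp1, a proteinase that activates lysyl oxidase precursors, was at 115, 42.2 and 15.7, with log2 ratios of 1.26 and 2.28.

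Ltbp3, which also encodes a latent TGF-β binding protein, was at 203, 183 and 143 CPM, highest in CONV and within 2-fold. Loxl1, the lysyl oxidase relative tied to elastic fibre upkeep, was at 689, 798 and 658 CPM and thus close between libraries. Over all fibroblasts Fbln2 was at 263, 161 and 45.7, and Tgfb2, a ligand stored with latent binding proteins, at 142, 80.4 and 48.5. Both were highest in CONV and there past 2-fold only against FLASH. Fbln2 was at 106, 107 and 37.5 on the Col13a1 side, so that CONV was the highest library on the adventitial side only (474, 274 and 79.4). Tgfb2 was highest in CONV on both sides, at 88.5, 80.1 and 33.9 on the Col13a1 side and 213, 81.0 and 108 on the adventitial side. Elane, Mmp7, Ctsk and Ctss, which encode elastin-degrading proteinases, were listed at 0 in the fibroblasts of all libraries.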

How the data were processed

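Lungs of 3 mice were measured by 3′ single-cell RNA sequencing. For each library the authors deposited 1 table of natural log values, ln(1 + a whole number), of 22954 genes per cell. The submitters' processing notes name Cell Ranger 6.0.0 and mm10, and the paper names R and Seurat. No source used here states how the values were adjusted. Totals per cell had a narrow range, and genes of other cell types were often listed at 0, so no count model was used and no limit was set for a 0. Another 4 tables, with 12 per-sample columns, had identifiers unlike those of the 3 libraries and were not used.

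Each value was converted back to its whole number, all within 1e-06. A cell took the type with the highest share of its 8 markers above 0, with at least 3 markers and a lead of 0.15. Cells with 3 or more markers of another lineage (39 cells) were set aside as mixed, which served as the doublet filter. No doublet caller was run. A further 1296 cells stayed unassigned. A type had to hold 20 cells per library. Ratios were taken on the pooled level (CPM) plus 10, which understates changes of low genes, for genes with a summed value of at least 20. A gene counted as changed past 2-fold. Shares carry exact Clopper-Pearson 95% intervals. With 1 library per condition no p-value was computed. Levels of different genes were not compared, because 3′ counts were used without gene-specific capture rates.

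The 10 genes and the lists were chosen with earlier results of these data known. Named genes were these 10, list genes past 2-fold in CONV fibroblasts against both other libraries, and the 5 genes most alike Eln and Ltbp2. Fbln2, Tgfb2, Loxl1, Hhip, Enpp2, Wt1, Upk1b, Ltbp3, Efemp1, Efemp2, Mmp12, Glb1, Ctsa and the list genes at 0 were named after their values were seen. So were Aspn, Fgf18, Lgr6 and P2ry14. Alternatives changed the prior, the gate, mixed cells, cell weights, the sum filter, depth, scaling and the totals. Gene positions are from GENCODE M21 (GRCm38) and upstream sequences from RefSeq (GRCm38.p6). The ratio step was tested on simulated data. Python 3.11.15, numpy 2.4.6, scipy 1.17.1, pandas 2.3.3 and matplotlib 3.10.9 were used.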

Additional observations from a re-analysis of the deposited data

How the results depend on the processing

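Each condition is 1 mouse, so no setting can separate irradiation or AsiDNA from the animal. No paired analysis was possible because each condition is 1 library. Of 270 log2 ratios of the 10 genes in fibroblasts under the alternatives, 268 kept their side of 2-fold and 2 passed it. The sign changed for 7, all within 2-fold and none of them Eln or Ltbp2 in CONV: thinned to 1000, Ltbp1 in CONV over CONV AsiDNA went from -0.39 to 0.03, Fbn1 in CONV over FLASH from 0.19 to -0.32, Mfap5 in CONV over FLASH from 0.05 to -0.16 and Ltbp4 in CONV AsiDNA over FLASH from 0.06 to -0.07. The other 3 were Lox in CONV over CONV AsiDNA with at least 4 markers, and Mfap5 in that pair and Ltbp2 in CONV AsiDNA over FLASH without the cells described next. With cells thinned to 1000, Fbln1 in CONV over CONV AsiDNA was at -1.17, and 2 genes were past 2-fold in that pair in place of 1. Without the fibroblasts above 0 for 2 or more SMC or mesothelial markers, an alternative chosen after seeing the data, Eln in CONV over FLASH was at 1.01 and 2 genes were past 2-fold in that pair. Thinning to 500 in place of 1000 lowered the share above 0 to 17.9% for Ltbp2 in CONV, 2.92% for Ltbp2 in FLASH, 35.9% for Eln in CONV AsiDNA and 38% for Eln in FLASH. At 500 Eln in CONV was at 56.7% (44.0% to 68.8%), an interval that overlaps that of CONV AsiDNA (27.2% to 45.3%), and at 1000 the shares were 62.7% and 62.4%. Depth limits these shares, and groups of under 40 cells limit the values of each fibroblast side and of mesothelial cells.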
